A study of Mus musculus with 12 samples.

Results

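Thalamic neurons carry a set of transcription factors by which their nuclei and cell classes are told apart, and 10 of these, Gbx2, Lhx2, Lhx9, Tcf7l2, Lef1, Foxp2, Rora, Rorb, Neurog2 and Prox1, were followed here in the dorsolateral geniculate nucleus (dLGN) of mice that had lost Sox2 or Nr2f1 from the thalamus. The 10 genes were picked by symbol from the 24480 genes of the count tables, and all 10 passed the filter on low counts in every comparison. The data were 12 RNA-seq libraries from dLGN taken at postnatal day 0, in 4 groups of 3, and each library was a pool of 3 animals of 1 genotype. Sox2 mutants were Sox2flox/flox;Ror-alphaCre, and their controls were Sox2flox/flox or Sox2flox/+ without Cre. Nr2f1 mutants were Nr2f1 flox/flox;Ror-alphaCre. The label of their controls lists the same alleles and then says that there is no Cre. The study's methods give these controls as Nr2f1flox/flox or Nr2f1flox/+, and describe the controls of both lines as littermates without Cre. Every mutant and control thus carried at least 1 floxed allele, and the mutants alone carried the Cre. Ror-alphaCre sits in the Rora gene itself, behind an internal ribosome entry site after the coding sequence, so that Cre is made where Rora is expressed, in thalamic neurons that have left the cell cycle.

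In the developing thalamus, Gbx2, Lhx2 and Lhx9 are homeobox factors of newborn relay neurons, and Tcf7l2 and Lef1 are the DNA-binding partners through which beta-catenin carries the Wnt signal to genes. Rora and Rorb are orphan nuclear receptors that share a response element, Rora being a mark of the sensory nuclei. Foxp2 is a forkhead factor that marks part of the thalamic nuclei, Neurog2 is the basic helix-loop-helix factor that starts glutamatergic differentiation, and Prox1 is a homeobox factor that in the diencephalon follows cell cycle exit. SOX2 and NR2F1, the deleted factors, are an HMG-box protein and a nuclear receptor.

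For 9 of the 10 members, all but Foxp2, RefSeq gave promoter windows on GRCm38.p6, of which the 250 bases before each start site were searched for 3 words on both strands: ACAATG, the core of a SOX site, AGGTCA, the core of nuclear receptor sites, and CTTTGA, the core of a TCF/LEF site. Among all 32851 windows 10.7% held ACAATG or its reverse, CATTGT, 14.0% held AGGTCA and 13.8% held CTTTGA. Only 2 of the members' 16 windows held any of these words. The 4 windows printed here are those 2, the first Tcf7l2 window and the fourth Lef1 window, and the windows of Rora and Neurog2, the members that fell most in Sox2 mutants. Capitals mark the words, and each line runs 5′ to 3′ in the direction of the gene. Tcf7l2 lies on the plus strand, and its window, chr19:55741560-55741809, held CATTGT 245 and 103 bases before the start site. The Lef1 window, chr3:131156044-131156293 on the plus strand, belongs to a start site inside the gene and held CATTGT once and TCAAAG, the reverse of CTTTGA, at 2 places. The windows of Rora, chr9:68653536-68653785, and Neurog2, chr3:127632886-127633135, both on the plus strand, held none of the words, as did those of Gbx2, Lhx2, Lhx9, Rorb and Prox1. Bases outside these windows were not searched. The study mapped SOX2 binding in newborn dLGN and names Neurog2 among the genes associated with its SOX2 peaks.
Tcf7l2: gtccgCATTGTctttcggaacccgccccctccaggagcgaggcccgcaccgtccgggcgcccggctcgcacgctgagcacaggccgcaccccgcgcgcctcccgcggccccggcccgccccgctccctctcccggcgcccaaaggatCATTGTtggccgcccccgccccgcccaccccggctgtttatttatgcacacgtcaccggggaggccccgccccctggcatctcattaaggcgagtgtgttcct
Lef1: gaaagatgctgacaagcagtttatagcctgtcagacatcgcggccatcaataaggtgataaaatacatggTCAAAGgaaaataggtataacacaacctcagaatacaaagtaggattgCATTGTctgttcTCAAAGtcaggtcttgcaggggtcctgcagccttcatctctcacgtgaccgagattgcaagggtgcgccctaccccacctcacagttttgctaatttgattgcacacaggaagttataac
Rora: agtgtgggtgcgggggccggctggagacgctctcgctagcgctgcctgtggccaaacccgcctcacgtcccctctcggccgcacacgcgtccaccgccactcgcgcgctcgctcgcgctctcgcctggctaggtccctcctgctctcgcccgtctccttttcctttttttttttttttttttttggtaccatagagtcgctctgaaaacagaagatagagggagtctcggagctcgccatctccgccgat
Neurog2: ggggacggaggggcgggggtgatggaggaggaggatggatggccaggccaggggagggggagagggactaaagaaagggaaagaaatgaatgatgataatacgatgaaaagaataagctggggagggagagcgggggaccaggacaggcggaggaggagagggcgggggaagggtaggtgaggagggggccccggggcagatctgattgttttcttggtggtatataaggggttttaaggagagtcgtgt

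A library held 39293465 to 50095344 estimated counts, and the members together took 0.152% to 0.220% of them. Levels are given as CPM, a gene's share of its library's counts on a fixed scale, after scaling by the trimmed mean of M-values (TMM) over the 12 libraries. The deleted genes went with their labels. Sox2 stood at 365 ± 14.6 CPM in Sox2 controls and 139 ± 20.5 in Sox2 mutants (SD, n = 3), a log2 fold change of -1.40 ± 0.10 (SE; FDR 4.83e-05). Nr2f1 stood at 357 ± 37.7 CPM in Nr2f1 controls and 120 ± 27.6 in Nr2f1 mutants, a log2 fold change of -1.57 ± 0.14 (SE; FDR 0.000348). Sox2 was also lower in Nr2f1 mutants, by a log2 fold change of -0.55 ± 0.09 (FDR 0.00635), and Nr2f1 in Sox2 mutants gave -0.39 ± 0.13 (FDR 0.0559). The relay neuron gene Slc17a6, the vesicular glutamate transporter of thalamic projection neurons, stood at 229 ± 34.5 CPM in Sox2 controls and 248 ± 28.8 CPM in Nr2f1 controls. Pools differed in sex: Xist, the transcript of the inactive X, was at most 0.458 CPM in 3 pools (CTRL_2 and MUT_1 among the Sox2 libraries, CTRL_E among the Nr2f1 ones), and 4 Y-linked genes summed to 0 in MUT_A. Among the Sox2 controls CTRL_3 stood apart: its counts differed from those of CTRL_1 and CTRL_2 by 37.9 and 31.5 times counting noise, against 10.4 between those 2. Its meningeal markers summed to 1820 CPM against 897 in each of the others, and its endothelial markers to 451 CPM against 291 and 306. Without it 2161 genes in place of 1261 were called in Sox2 mutants, and the count of members called, 6, and their directions stayed the same. In tissue of mixed cells, fewer cells of a type and less RNA per cell cannot be told apart.

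Per length, Tcf7l2 was the most abundant member. In Sox2 controls its level was 243 ± 35.0 CPM per kilobase of transcript (SD, n = 3), followed by Lef1 at 67.3 ± 3.38. Rora, at 49.1 ± 4.56, and Lhx9, at 48.9 ± 4.51, overlapped between libraries and had no order beyond their spread. Foxp2 (25.6 ± 3.49) and Lhx2 (14.3 ± 2.44) came next, each apart from its neighbours. Gbx2 (8.65 ± 2.04) overlapped Prox1 (6.35 ± 0.958), which overlapped Neurog2 (5.56 ± 0.179), and Rorb lay apart as the lowest at 2.08 ± 0.136 CPM per kilobase. The Nr2f1 controls gave the same order, apart from Prox1 and Gbx2, which overlapped, and with the longest annotated transcript as the length Lhx9 came before Rora in the controls of both lines. In Sox2 mutants Rora, at 12.7 ± 1.92, overlapped Lhx2 (14.96 ± 3.76) and no longer Lhx9 (36.4 ± 1.40), and Gbx2, at 27.8 ± 3.41, overlapped Foxp2 (27.6 ± 1.63) and lay above Prox1 (3.56 ± 0.194).

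**Figure D1:**
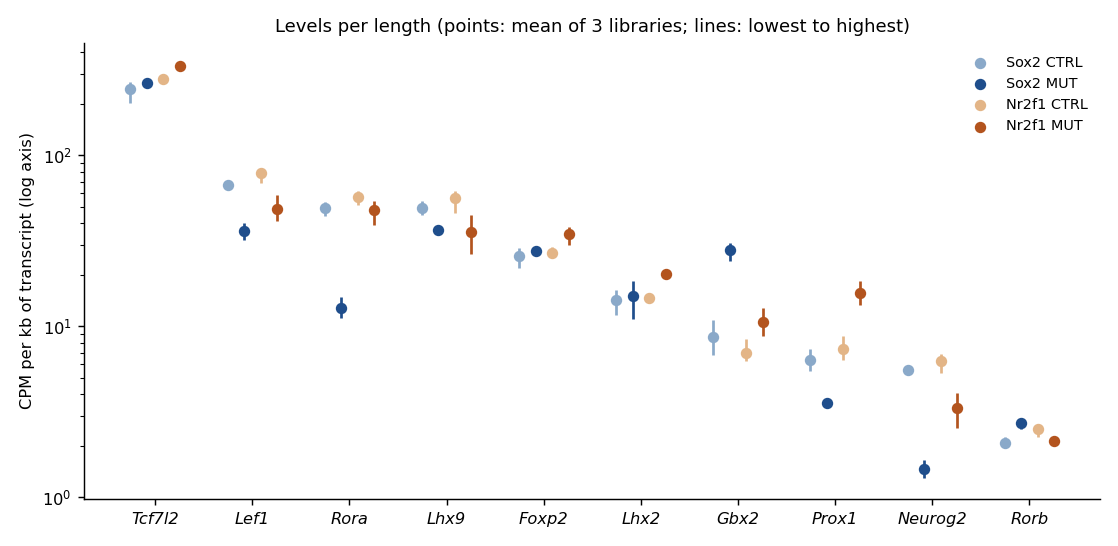
Levels of the 10 members per length, in CPM per kilobase of transcript on a log axis, for the 4 groups: points are means of 3 libraries and lines run from the lowest library to the highest. Tcf7l2 lies above all others in every group, and Rora of the Sox2 mutants, at 12.7 CPM per kilobase, lies apart from the other 3 groups.

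The first comparison asked which members differed between mutants and their own controls, here in the Sox2 line. In Sox2 mutants 6 of the 10 members changed at an FDR below 0.01, against 8.08% of the 15602 genes tested. Gbx2 rose, where 3.90% of all genes were called higher, and Lhx9, Lef1, Rora, Neurog2 and Prox1 fell, where 4.19% were called lower. Lhx2, Tcf7l2, Foxp2 and Rorb did not pass the test. Throughout, a gene is said to be called, to rise or to fall by edgeR's quasi-likelihood test unless another is named. The members' median log2 fold change was -0.19 and that of all genes tested 0.00050, and the median absolute change was 0.64 for the members and 0.19 for all genes. For 7 members the mutant libraries did not overlap the controls, as for 37.9% of all genes.

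Rora and Neurog2 changed most, and which of them came first turned with the library left out. The level of Rora was 358, 337 and 298 CPM in the Sox2 controls CTRL_1, CTRL_2 and CTRL_3 and 80.1, 99.9 and 75.7 CPM in the Sox2 mutants MUT_1, MUT_3 and MUT_4. The lowest control was thus far above the highest mutant, and on average 25.8% of the Rora seen in controls was left in mutants, a log2 fold change of -1.96 ± 0.12 (SE, n = 3 and 3; FDR 2.07e-05). By its p Rora ranked 9 among the 15602 genes. Between Nr2f1 groups the change was small: Rora was 385, 346 and 417 CPM in CTRL_B, CTRL_D and CTRL_E and 366, 335 and 263 CPM in MUT_A, MUT_B and MUT_C. These groups overlapped, and the log2 fold change of -0.25 ± 0.11 did not pass the test (FDR 0.204). All mutants of both lines carried the modified Rora allele and no control did, so within a line the allele and the deletion cannot be told apart for this gene; the mutants of both lines carried the same Cre allele, and their changes in Rora differed by a log2 of -1.70 ± 0.18 (FDR 0.000118). In GRCm38.p6 the Rora locus, chr9:68653786-69388246, overlaps 5 long non-coding RNA genes, and whether the counting used strand is not given in the sources used here.

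Neurog2 was a rare transcript whose change was within the SE of that of Rora. It stood at 12.32, 12.03 and 12.82 CPM in the Sox2 controls and at 3.23, 2.88 and 3.65 CPM in the Sox2 mutants, from 126 to 166 counts in a mutant library. The control libraries lay close together and every mutant library lay far below them. The log2 fold change was -1.93 ± 0.13 (FDR 3.08e-05; rank 25). Nr2f1 controls held 15.3, 14.8 and 11.8 CPM and the mutants 7.59, 8.997 and 5.66 CPM. These groups did not overlap either, yet the log2 fold change of -0.91 ± 0.17 just missed the threshold (FDR 0.0124). The study, whose methods name the same test and threshold, lists Neurog2 as lower in Nr2f1 mutants. Neurog2 was called lower in Nr2f1 mutants in 5 of 12 alternative fits. These were DESeq2 (FDR 1.76e-06), the likelihood ratio test (FDR 2.82e-05) and edgeR without the filter on low counts (FDR 0.00388). The others were 1 fit over 12 libraries (FDR 0.00296) and the fit without MUT_B (FDR 0.00275). The difference between the lines was -1.02 ± 0.22 on the log2 scale and was not called (FDR 0.0226).

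Lef1 fell in the mutants of both lines. In Sox2 controls it stood at 239, 222 and 217 CPM and in the mutants at 108, 135 and 121 CPM, a log2 fold change of -0.91 ± 0.09 (FDR 0.000191). In Nr2f1 controls it stood at 281, 231 and 281 CPM and in the mutants at 154, 195 and 139 CPM, a log2 fold change of -0.70 ± 0.12 (FDR 0.00853). In neither line did mutants and controls overlap, and the difference between the changes was -0.21 ± 0.16 (FDR 0.620), which does not show that they were equal. By edgeR's quasi-likelihood test as run here Lef1 was the only member called in the same direction in both lines. DESeq2 called Gbx2 (higher) and Neurog2 (lower) in both as well, and the likelihood ratio test added Lhx9 (lower). Among Nr2f1 libraries this call held only with all of them or without MUT_B: leaving out another of the 6 ended it, as did a covariate for the sex of the pools, and it held in 6 of 12 alternative fits, with the log2 fold change between -0.85 and -0.60.

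Tcf7l2, the relative of Lef1 and the most abundant member, was not called in either line by edgeR's quasi-likelihood test. It stood at 834, 799 and 631 CPM in Sox2 controls and at 817, 833 and 819 CPM in Sox2 mutants. CTRL_3 was the low library, and the groups overlapped (log2 fold change 0.12 ± 0.10, FDR 0.452). Nr2f1 controls held 838, 887 and 880 CPM and the mutants 1071, 1042 and 1008 CPM. Here the mutants lay above the controls without overlap, and the log2 fold change of 0.26 ± 0.05 had an FDR of 0.0138. This change was called by DESeq2 (FDR 0.000257), by the likelihood ratio test (FDR 0.00406) and without the filter on low counts (FDR 0.00845). Of 15 partners of the TCF/LEF factors and genes induced by Wnt signalling, 1 was called in each line, both lower: Lgr5, a receptor for R-spondins, in Sox2 mutants (log2 fold change -1.20 ± 0.15, FDR 0.000842) and Nkd1, a feedback inhibitor of the pathway, in Nr2f1 mutants (-0.57 ± 0.07, FDR 0.00123). Of all genes tested, 8.08% were called in Sox2 mutants and 2.54% in Nr2f1 mutants. The median of the 15 was 0.06 in Sox2 mutants and 0.02 in Nr2f1 mutants.

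Prox1 moved in opposite directions in the 2 mutants. It stood at 49.3, 58.3 and 43.2 CPM in Sox2 controls and at 29.0, 26.4 and 29.1 CPM in Sox2 mutants, a log2 fold change of -0.84 ± 0.11 (FDR 0.000964). In Nr2f1 controls it stood at 53.9, 50.1 and 69.6 CPM and in Nr2f1 mutants at 145, 121 and 105 CPM, a log2 fold change of 1.10 ± 0.14 (FDR 0.00177). Every Sox2 mutant was below every Sox2 control, and every Nr2f1 mutant was above every control of either line. The changes differed by -1.93 ± 0.20 on the log2 scale (FDR 9.85e-05). Prox1 was, by edgeR, the only member called in both lines with opposite signs. Its call in Nr2f1 mutants was lost without CTRL_B (FDR 0.0149) or without CTRL_D (FDR 0.0108). Over the 12 alternative fits its log2 fold change stayed between 0.95 and 1.25. Prox1 is also the master factor of lymphatic endothelium, whose markers Lyve1, Flt4, Pdpn and Ccl21a summed to 31.2 to 48.8 CPM in Sox2 controls, 50.3 to 75.0 in Sox2 mutants, 29.0 to 30.6 in Nr2f1 controls and 35.9 to 49.4 in Nr2f1 mutants. Their part in the Prox1 values was not tested. The RNA gene Prox1os overlaps Prox1.

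**Figure D2:**
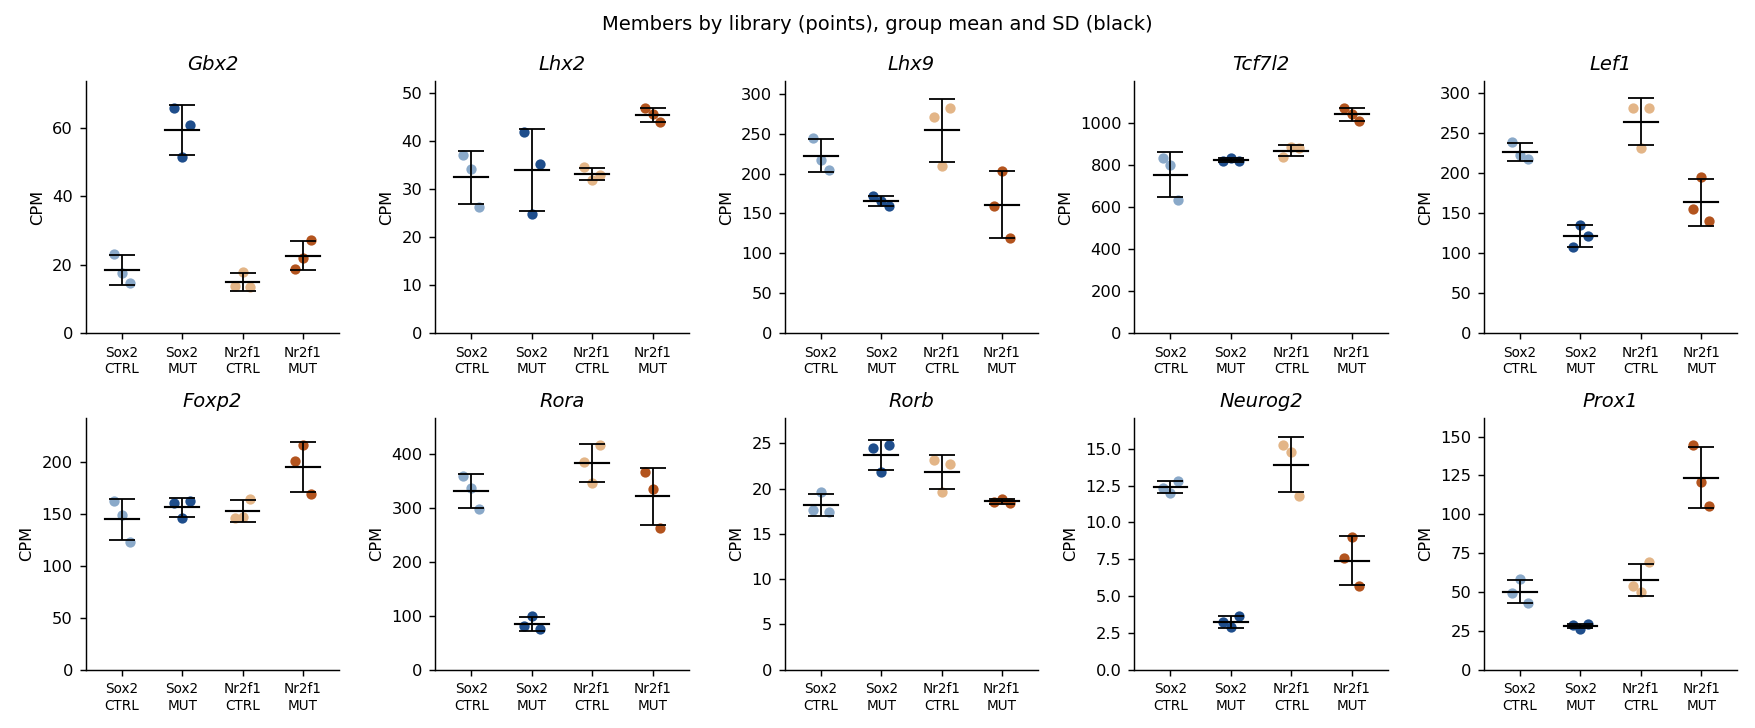
CPM of each member in each of the 12 libraries, one panel a gene, with the axis from 0: points are libraries, black lines the group mean and SD of 3 libraries. Rora of the Sox2 mutants lies far below all other libraries, and Gbx2 of the Sox2 mutants lies above all others. Neurog2 of the Sox2 mutants lies far below all controls, with the Nr2f1 mutants (5.66 to 8.997 CPM) between. Prox1 is lowest in Sox2 mutants and highest in Nr2f1 mutants.

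By edgeR's quasi-likelihood test Gbx2 was the only member that rose in Sox2 mutants. It stood at 23.2, 17.7 and 14.5 CPM in the controls and at 65.7, 51.4 and 60.7 CPM in the mutants, a mean of 321% of controls. The groups were well apart, with a log2 fold change of 1.67 ± 0.16 (FDR 0.000206). Nr2f1 controls held 13.6, 17.9 and 13.3 CPM and the mutants 18.62, 21.99 and 27.17 CPM. These too did not overlap, by a small margin, and the log2 fold change of 0.60 ± 0.15 was not called (FDR 0.0476). The difference between the lines was 1.09 ± 0.25 (FDR 0.0275).

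Of the LIM-homeobox pair, Lhx9 fell in Sox2 mutants and Lhx2 rose in Nr2f1 mutants. Lhx9 stood at 245, 217 and 205 CPM in Sox2 controls and at 172, 165 and 160 CPM in Sox2 mutants, a log2 fold change of -0.43 ± 0.08 (FDR 0.00619). This call held in 5 of 13 alternative fits and was lost when any library but CTRL_3 was left out. In the Nr2f1 line Lhx9 was 271, 209 and 282 CPM in controls and 159, 204 and 120 CPM in mutants, where CTRL_D and MUT_B nearly met, and its larger log2 fold change of -0.66 ± 0.17 was not called (FDR 0.0491). The changes of Lhx9 in the lines differed by 0.24 ± 0.22 (FDR 0.682).

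Lhx2 was tight in the Nr2f1 line. The controls held 34.5, 31.9 and 32.9 CPM and the mutants 46.9, 45.7 and 44.0 CPM, a log2 fold change of 0.46 ± 0.06 (FDR 0.00255). The call held in 7 of 12 alternative fits and was lost, among others, without CTRL_D, CTRL_E or MUT_A. In the Sox2 line Lhx2 scattered from 26.3 to 37.0 CPM in controls and from 24.9 to 41.8 CPM in mutants, and the log2 fold change of 0.06 ± 0.18 was not called (FDR 0.858) and turned negative without CTRL_3 or without MUT_1. Lhx2 is also strongly expressed in the cortex and hippocampus, and 9 markers of pallial neurons summed to 155 CPM in MUT_1, 48.7 in MUT_3 and 92.0 in MUT_4, the same order as Lhx2 in these libraries (41.8, 24.9 and 35.1 CPM). In the Sox2 controls they summed to 28.4 to 59.8 CPM, and in the Nr2f1 line to 30.5 to 40.9 CPM in controls and 29.5 to 42.0 CPM in mutants. The order was shared with Lhx2 in the Sox2 controls too, but in neither Nr2f1 group. Of the Nr2f1 mutants, MUT_C held the highest pallial sum and the lowest Lhx2 (44.0 CPM). By edgeR none of the 9 was called in either line, with 7 at an unadjusted p under 0.05 and 1 called by DESeq2 in Sox2 mutants, and 0 and 0 in Nr2f1 mutants. The shares of all genes were 35.0% and 15.7% in Sox2 mutants and 24.6% and 7.07% in Nr2f1 mutants. The part of pallial neurons in the Lhx2 values was not tested.

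Rorb and Foxp2 were not called in either line by edgeR's quasi-likelihood test. Rorb, the relative of Rora, stood at 17.6, 19.6 and 17.4 CPM in Sox2 controls and at 24.4, 21.8 and 24.8 CPM in Sox2 mutants, above the controls in all 3 (log2 fold change 0.37 ± 0.09, FDR 0.0224). DESeq2 (FDR 0.00415), the likelihood ratio test (FDR 0.00826) and 1 fit over 12 libraries (FDR 0.00574) called Rorb higher in Sox2 mutants. Among Nr2f1 libraries it stood at 23.2, 19.7 and 22.7 CPM in controls and at 18.6, 18.9 and 18.4 CPM in mutants, below them in all 3 (-0.23 ± 0.08, FDR 0.125). The difference between the changes was 0.61 ± 0.12 (FDR 0.0120). Foxp2 overlapped in the Sox2 line, with controls from 123 to 162 CPM and mutants from 145 to 162 CPM (0.10 ± 0.10, FDR 0.516). Foxp2 of the Nr2f1 line was 146 to 164 CPM in controls and 169 to 216 CPM in mutants (0.36 ± 0.09, FDR 0.0384). This was called by DESeq2 (FDR 0.00181), by the likelihood ratio test (FDR 0.00461) and without MUT_C.

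In Nr2f1 mutants, which were asked the same question, 3 of the 10 members thus changed, against 2.54% of the 15600 genes tested. Lhx2 and Prox1 rose, where 1.22% of all genes were called higher, and Lef1 fell, where 1.32% were called lower. For 9 members the mutant libraries did not overlap the controls, as for 28.7% of all genes, and 9 had an unadjusted p under 0.05, as 24.6% of all genes did. The members' median log2 fold change was 0.01, like that of all genes, and their median absolute change was 0.53 against 0.12. The calls depended on single libraries: without CTRL_D no member was called by edgeR, although 10 had an unadjusted p under 0.05 (as had 3470 of 15784 genes). With the 4 Y-linked genes as a covariate, a choice made after seeing the data, none was called either, with 9 at an unadjusted p under 0.05 (17.8% of all genes) and 0.538% of all genes called. DESeq2, on all 6 libraries, called 7 members and 7.07% of all genes. In the fit with the covariate the changes kept their signs, with 0.95 ± 0.14 for Prox1 (FDR 0.0182), 0.43 ± 0.08 for Lhx2 (FDR 0.0319) and -0.66 ± 0.15 for Lef1 (FDR 0.0784). The Y-linked genes summed to 0 CPM in MUT_A and to 32.8 to 98.1 CPM in the other Nr2f1 libraries, so the covariate mainly set MUT_A apart. Without MUT_A the changes were 0.97 for Prox1, 0.44 for Lhx2 and -0.66 for Lef1. The covariate thus cannot separate the sex of the pools from MUT_A. In Sox2 mutants Gbx2, Lef1, Rora, Neurog2 and Prox1 were called in all 13 alternative fits.

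**Figure D3:**
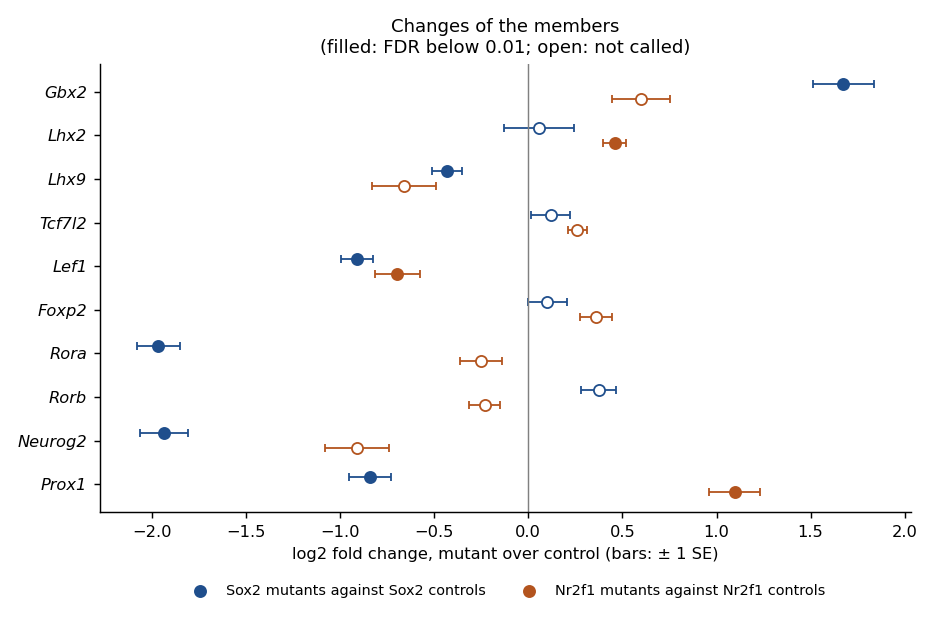
Log2 fold change of each member, mutants over their own controls (bars: 1 SE), with filled points for an FDR below 0.01. Rora and Neurog2 lie furthest to the left in Sox2 mutants, Lef1 is filled on the left in both lines, and Prox1 is filled at -0.84 in Sox2 mutants and at 1.10 in Nr2f1 mutants.

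**Figure D4:**
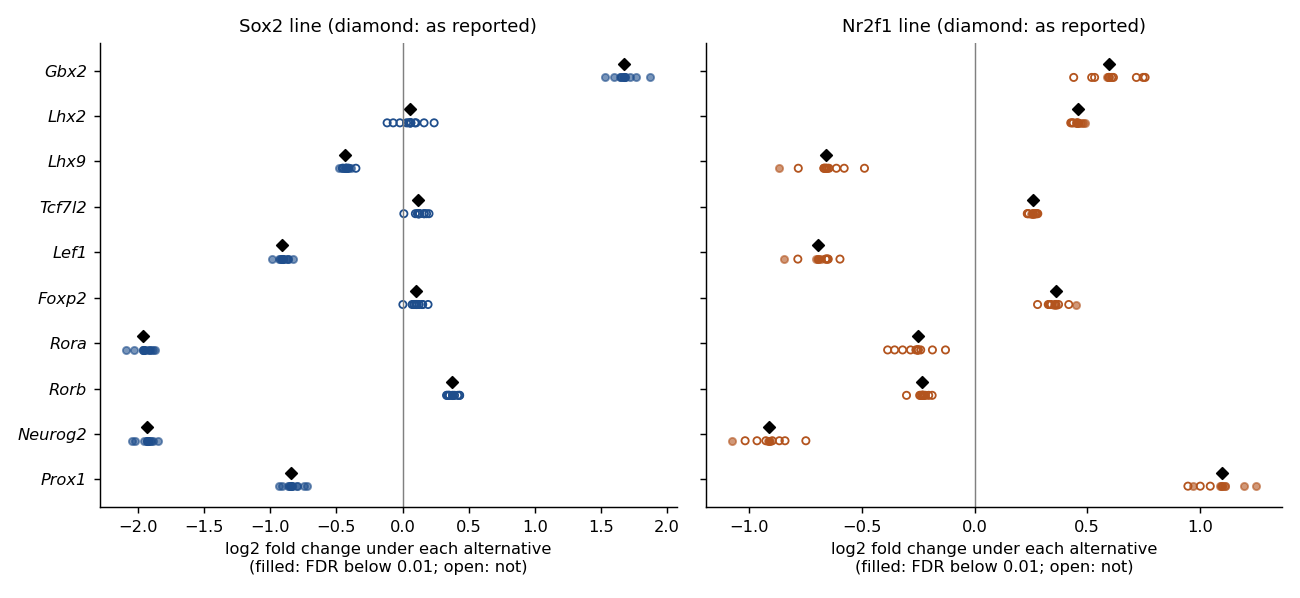
Log2 fold change of each member as reported (diamonds) and under each alternative fit (circles, filled where the FDR was below 0.01), 13 for Sox2 and 12 for Nr2f1. All circles of Rora, Neurog2, Lef1, Prox1 and Gbx2 are filled in the Sox2 line, and no member has all its circles filled in the Nr2f1 line.

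Tested over all 12 libraries, the change in Sox2 mutants differed from that in Nr2f1 mutants for 2 members, Rora and Prox1, against 1.44% of 15989 genes. Both were called in all 16 alternative fits, with differences from -1.82 to -1.60 for Rora and from -2.08 to -1.80 for Prox1 on the log2 scale. Between the controls of the lines no member was called by edgeR, DESeq2 or the likelihood ratio test, 3 had an unadjusted p under 0.05 (17.4% of all genes), and 0.342% of 15506 genes were called by edgeR.

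Of 17 family relatives of the members, 10 were tested, and 1 was called in each line. Over all genes 8.08% were called in Sox2 mutants and 2.54% in Nr2f1 mutants. Foxp4 was lower in Sox2 mutants (log2 fold change -0.48 ± 0.07, FDR 0.00168) and Foxp1 in Nr2f1 mutants (-0.47 ± 0.06, FDR 0.00282), while Foxp1 gave 0.13 ± 0.08 in Sox2 mutants (FDR 0.263). The changes of Foxp1 in the lines differed by 0.61 (FDR 0.00332). Both are forkhead factors of the Foxp2 family.

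Of 24 other transcription factors of the diencephalon, 7 were called in Sox2 mutants, against 8.08% of all genes. Sp9, a zinc-finger factor, fell from 356 ± 31.4 to 109 ± 15.6 CPM (log2 fold change -1.72 ± 0.11, FDR 2.64e-05), while in the Nr2f1 line it was 406 ± 35.7 and 367 ± 46.9 CPM (-0.14 ± 0.09, FDR 0.391). The difference between the changes, -1.57, was called (FDR 9.85e-05), as it was for Rora. Nkx2-2, Irx1, Irx2, Otx1, Otx2 and Pax6, factors of progenitors and of neighbouring territories, rose in Sox2 mutants, with 0.59 ± 0.08 for Irx1 (FDR 0.00160) and 0.62 ± 0.10 for Pax6 (FDR 0.00223). In Nr2f1 mutants edgeR called 1 of the 24 and DESeq2 2, against 2.54% and 7.07% of all genes. Zic1, the edgeR call, fell (-0.49 ± 0.08, FDR 0.00737). The median of the 24 was 0.52 in Sox2 mutants and 0.19 in Nr2f1 mutants.

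Clock genes that carry response elements for the ROR receptors were read beside Rora. In Sox2 mutants 3 of 8 fell, where 4.19% of all genes were called lower. Arntl, the core activator of the clock, gave -0.71 ± 0.10 (FDR 0.00107), Nfil3, a repressor, -0.79 ± 0.10 (FDR 0.000928), and Nr1d1, the receptor that competes with the RORs, -1.03 ± 0.15 (FDR 0.00161). In Nr2f1 mutants, where Rora gave -0.25 ± 0.11 (FDR 0.204), 2 of the 8 fell, against 1.32% of all genes called lower. These were Arntl (-0.38 ± 0.06, FDR 0.00724) and Nfil3 (-0.46 ± 0.08, FDR 0.00703), and Nr1d1 gave -0.44 ± 0.09 (FDR 0.0163). The changes of these genes were not called different between the lines (FDR 0.170 for Arntl, 0.216 for Nfil3 and 0.128 for Nr1d1). The median of the 8 was -0.37 in Sox2 mutants and -0.16 in Nr2f1 mutants. The part of Rora in the changes of the clock genes was not tested. The time of day of dissection is not given in the sources used here.

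Genes of relay neurons went both ways. The list held 10 genes, and a gene of it is not reported here. Among those reported, Slc17a7 and Calb2 rose in Sox2 mutants and Slc17a6, Ntng1 and Slc6a4 fell. In Nr2f1 mutants Cacna1g and Kcnc2 rose and Slc6a4 fell. Over all genes 8.08% were called in Sox2 mutants and 2.54% in Nr2f1 mutants. Slc17a6 gave -0.96 ± 0.10 in Sox2 mutants (FDR 0.000336) and -0.04 ± 0.10 in Nr2f1 mutants (FDR 0.836). Its changes in the lines differed by -0.91 (FDR 0.00467). Calb2, which encodes calretinin, gave 1.24 ± 0.10 in Sox2 mutants (FDR 7.59e-05) and 0.32 ± 0.09 in Nr2f1 mutants (FDR 0.0653). Slc6a4, the serotonin transporter that sensory relay neurons express for a time after birth, gave -1.41 ± 0.13 (FDR 0.000130) and -1.88 ± 0.29 (FDR 0.00510).

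Markers of other cell types moved with the Sox2 deletion. Of 9 astrocyte and radial glia markers 7 rose in Sox2 mutants, their sum going from 1840 to 2230 CPM in controls to 2840 to 3270 in mutants, and 6 of 7 microglia markers rose, from 86.3 to 100 CPM to 187 to 213 CPM. Among Nr2f1 mutants 1 astrocyte marker, Aqp4, was called by edgeR and no microglia marker (4 at an unadjusted p under 0.05, 2 by DESeq2), and the sums were 1630 to 1680 and 1810 to 1990 CPM for astrocytes and 67.9 to 77.5 and 83.7 to 112 CPM for microglia. Of 8 general neuron markers Syt1 and Elavl4 fell in Sox2 mutants and none was called in Nr2f1 mutants by edgeR (3 at an unadjusted p under 0.05, 2 by DESeq2), their sum being 5920 to 6890 CPM in Sox2 controls and 5840 to 6130 in Sox2 mutants, which overlapped, and 6970 to 7260 CPM in Nr2f1 controls and 6280 to 6860 in Nr2f1 mutants, which did not. The sums of 13 GABAergic markers were 128 to 185 CPM in Sox2 controls and 221 to 274 in Sox2 mutants, and 170 to 184 and 167 to 327 CPM for the Nr2f1 groups. By edgeR none of these was called, but all 13 in Sox2 mutants and 6 in Nr2f1 mutants had an unadjusted p under 0.05, and DESeq2 called 9 and 1. The sum of 8 genes of dividing cells was 223 to 285 and 308 to 355 CPM in the Sox2 line, and 205 to 212 and 210 to 227 CPM in the Nr2f1 line. None was called by edgeR, with 7 and 0 at an unadjusted p under 0.05 and 2 and 0 called by DESeq2. Over all genes, edgeR gave an unadjusted p under 0.05 for 35.0% in Sox2 mutants and 24.6% in Nr2f1 mutants. It called 8.08% and 2.54% of all genes, and DESeq2 15.7% and 7.07%. The part of the listed cell types in the changes of the members was not tested.

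**Figure D5:**
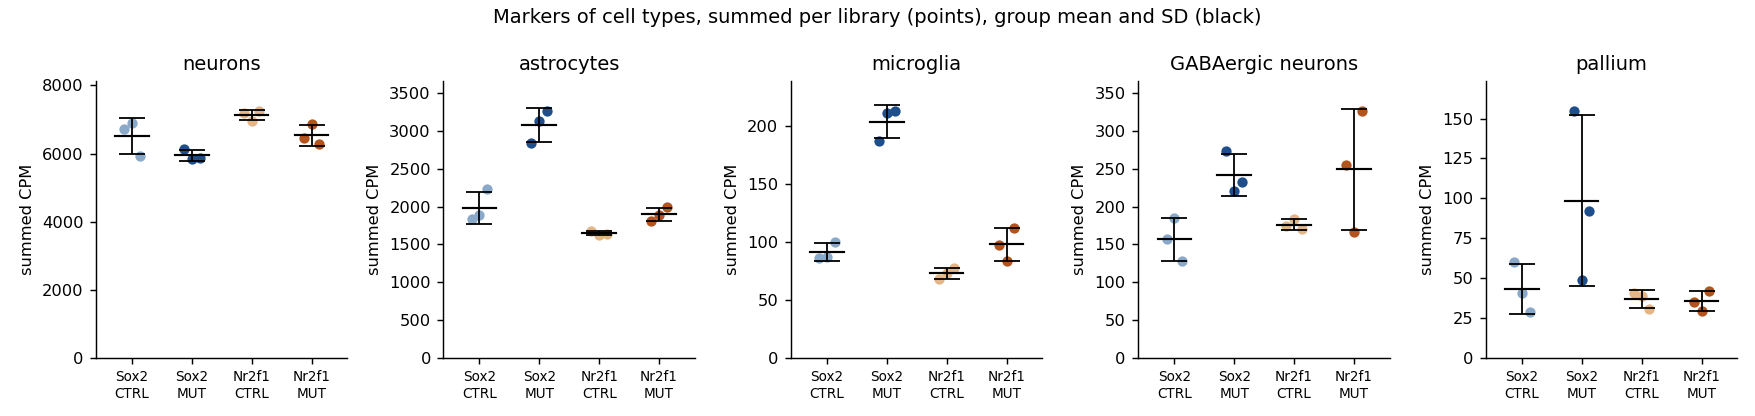
Summed CPM of marker lists in each library (points) with the group mean and SD (black), axes from 0. Astrocyte and microglia sums of the 3 Sox2 mutants lie above all other libraries, and the pallium sum of 1 Sox2 mutant, MUT_1, reaches 155 CPM.

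Among other cell types, Mbp rose and Mag fell in both lines out of 9 tested genes of the oligodendrocyte lineage, Chrna3 fell in Sox2 mutants out of 7 habenula genes, Pdpn rose in Sox2 mutants out of the 4 lymphatic ones, and no gene of the endothelial (8) or meningeal (6) lists was called by edgeR in either line. At an unadjusted p under 0.05 stood 6 and 6 endothelial and 2 and 5 meningeal genes in Sox2 and Nr2f1 mutants, and DESeq2 called 0 and 3 endothelial genes and no meningeal one. Of all genes, 35.0% and 24.6% had such a p in Sox2 and Nr2f1 mutants. DESeq2 called 15.7% and 7.07% of all genes, and edgeR 8.08% and 2.54%. The meningeal sums ran from 897 to 1820 CPM in Sox2 controls, 1380 to 3140 in Sox2 mutants, 701 to 1070 in Nr2f1 controls and 1010 to 2340 in Nr2f1 mutants, and the median log2 fold change of these 6 genes was 0.71 in Sox2 and 0.96 in Nr2f1 mutants.

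The genes whose log2 CPM ran most like a member over the 12 libraries, which differ in line and genotype, were picked by Pearson's r, as a description. For Rora these were Hs3st1 (r = 0.996), a heparan sulphate sulphotransferase gene, and Galnt14 (r = 0.995). Hs3st1 gave -1.99 ± 0.10 in Sox2 mutants and -0.20 ± 0.08 in Nr2f1 mutants. For Prox1 they were Large (r = 0.993), with -0.49 ± 0.07 in Sox2 mutants and 0.60 ± 0.06 in Nr2f1 mutants, and Hrk (r = 0.978). Neurog2 ran with Gng4 (r = 0.992) and Sgk1 (r = 0.984), and Lef1 with Mb21d2 (r = 0.980) and Adcy9 (r = 0.978). Gbx2 ran with Calb2 (r = 0.986) and Gabrg1 (r = 0.974), Lhx9 with Fam213a (r = 0.975) and Cdh7 (r = 0.942), and Lhx2 with Mapk10 (r = 0.948) and D130043K22Rik (r = 0.935). Among the members themselves, Lef1 and Neurog2 had r = 0.934 and Rora and Neurog2 r = 0.904, while Gbx2 ran against Rora (r = -0.954) and Neurog2 (r = -0.930). Foxp2 and Tcf7l2 had r = 0.881.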

How the data were processed

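The authors deposited expected counts per gene (estimated counts from RSEM), 1 table a line. Per the study's methods, reads (Nugen Universal+ mRNA-seq kit, paired) were aligned with STAR to the mouse RefSeq transcriptome and counted with RSEM; the labels name mm10. RSEM shares reads between transcripts, and whether strand was used is not given in the sources used here. Of the values 7.77% were not whole and were rounded here. No row lacked a gene name.

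Counts were filtered (filterByExpr, minimum count 10), scaled by TMM and tested with edgeR 4.0.16 (R 4.3.3), quasi-likelihood F-test, Benjamini-Hochberg FDR below 0.01 over all genes, each line's mutants against its controls. The difference between lines was the interaction over 12 libraries. The SE is the log2 fold change divided by the square root of F. CPM for levels were scaled over 12 libraries; lengths are medians of RefSeq-matched GENCODE transcripts (GRCm38). Table columns name group and replicate, not the deposited sample. Replicate libraries of a group differed by 10.4 to 37.9 times counting noise (chi-square per degree of freedom), the most for pairs with CTRL_3 of Sox2. The median SE over all genes was 0.109 for Sox2 and 0.0947 for Nr2f1. In simulated counts (200 genes changed, dispersion 0.01), log2 changes of 1 were recovered for 95.9% (Sox2), 92.9% (Nr2f1) and 87.0% (interaction) and changes of 2 for 100%, 100% and 98.0%, over 15509, 15505 and 15785 genes.

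Alternatives were no filter, upper-quartile scaling, DESeq2 1.42.0, the likelihood ratio test, an FDR of 0.05, leaving out each library, 1 fit over 12 libraries, a replicate block and, added after seeing the data, the mean log2 CPM of 4 Y-linked genes as a covariate. Members and gene lists were chosen with earlier results of these data known, so their counts carry no test of the list. Named were the 10 members, the deleted genes, at most 4 genes of smallest p per list with values (genes called beyond these by name, except the check gene Slc17a6), and the 2 genes most like each called member. A gene of the relay neuron list is not reported here.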

Additional observations from a re-analysis of the deposited data

Results flagged for a closer look

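Of the 10 members, 2 changed differently in the Sox2 and Nr2f1 mutants by the interaction test over 12 libraries. For Rora the Sox2 effect less the Nr2f1 effect was -1.70 on the log2 scale (FDR 0.000118), from -1.96 in Sox2 mutants and -0.25 in Nr2f1 mutants. For Prox1 it was -1.93 (FDR 9.85e-05), from -0.84 and 1.10, with all 3 Sox2 mutants below their controls and all 3 Nr2f1 mutants above theirs. No formal test for single outlying libraries was run, though each library was left out in turn and CTRL_3 of the Sox2 controls stood apart.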

How the results depend on the processing

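In Sox2 mutants the 6 members called stayed within 1.5 times of that count under all alternatives, where Lhx9 was lost in 8 fits and Rorb gained in 3. In Nr2f1 mutants the count of 3 became 5 without the filter, 7 with DESeq2, 8 with the likelihood ratio test, 8 at an FDR below 0.05, 0 with the Y-linked covariate and 0 (without CTRL_D) to 5 (without MUT_B) when 1 library was left out. The count of 2 for the difference between lines became 5 under DESeq2, 5 under the likelihood ratio test and 5 at an FDR below 0.05. Signs turned for values near 0: Lhx2 in Sox2 mutants ranged from -0.12 to 0.24 when 1 library was left out and was -0.020 with the covariate, and between controls Lhx2 ranged from -0.13 to 0.10 and Foxp2 from -0.16 to 0.028. The causes were not tested. Over all genes, the Sox2 count of 1261 became 2452 with DESeq2, 2351 with the likelihood ratio test, 3095 at an FDR below 0.05, 2075 in 1 fit over 12 libraries and 494 to 2161 when 1 library was left out. The Nr2f1 count of 396 became 1103, 1089 and 1154 under the first 3, 84 with the covariate and 133 to 868 when 1 library was left out. The interaction count of 231 became 537, 496, 538 and 133 to 308, and the count of 53 between controls became 343, 353, 209 and 20 to 53, or 100 without the filter.

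Upper-quartile scaling shifted all genes by 0.04 and 0.01 (log2) and changed the Sox2 split from 608 higher and 653 lower to 749 and 565. With 3 libraries a group, p-values rest on a spread between pools. In the Sox2 line mutants and controls share the replicate numbers 1 and 3 only (r of their deviations 0.178 and 0.137), so the numbers do not pair the samples; with the replicate block 5 members and 1611 genes were called, and the block leaves little freedom to estimate spread. In the Nr2f1 line no paired analysis was possible because its columns share 1 letter only.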
